A study of Mus musculus with 9 samples.

Results

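The comparison described here sets MOV10 S970D, a form of the RNA helicase MOV10 with aspartate at residue 970, against wild-type MOV10 (WT). All 6 libraries of these 2 groups were used, 3 for each form, out of 9 libraries in the deposited table, and every one of its 15977 genes was tested. The table's other libraries, from the same knockout cells given MOV10 S970A, with alanine at that residue, entered only the fit said to use all 9. The cells were N2A, a mouse neuroblastoma line, with the Mov10 gene knocked out, and both groups share that knockout. They received 2 micrograms of DNA coding for WT or S970D MOV10 and were lysed 24 hours later. No untransfected library and no empty-vector library was used here, so nothing below describes MOV10 against its absence. The labels do not say whether the knockout line is 1 clone, what share of the cells took up DNA, or from which species the transfected sequence came.

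MOV10 is a helicase of the UPF1-like family that moves along RNA and opens structure. It is known to bind 3′ untranslated regions (3′ UTRs) and to work beside AGO2, the protein that carries microRNAs, and FMRP, the RNA-binding protein lost in fragile X syndrome. It is also known to restrain retroelements. Aspartate carries a negative charge and is used as a stand-in for a phosphorylated serine.

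The residue in question lies near the end of the protein in the shorter mouse forms, and the coding bases around it are shown because the compared constructs differ there. In transcripts Mov10-201 and Mov10-207, both coding for 1004 residues, codon 970 is serine, in capitals below. The whole stretch shown runs from coding base 2887 to 2931 of the GENCODE annotation of GRCm38 (chromosome 3, minus strand gene).
Mov10-201, codon 970: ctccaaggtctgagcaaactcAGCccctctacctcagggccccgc
The annotated transcripts Mov10-203 and Mov10-206, with 1077 residues, have another residue at that number, so the numbering fits the shorter form.

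Expression was given as log2 CPM, the log2 of counts scaled by the authors to a library total. The table holds no read counts, so library depth is unknown and no counting error can be given. Turned back to CPM, the values summed to 957791 to 981473 in the WT libraries and to 1014839 to 1067717 in the S970D libraries. The lowest value of the table, -4.09, was shared by 59 to 93 genes per library and stands for genes with next to no signal. Whether the replicates were separate cultures is not stated, and p-values therefore reflect the spread among the libraries alone, which may be technical. WT replicate 1 stood apart from its group. Over all genes it correlated best with S970D replicate 3 (r = 0.980), whereas WT replicates 2 and 3 correlated best with each other (r = 0.989). Some results are therefore also given without WT replicate 1, but not every result that this library moves.

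The cells carried the transcription factors of sympathetic neuroblasts. Hand2 stood at 9.65, 9.19 and 9.03 log2 CPM in the WT libraries and at 10.61, 10.20 and 10.12 in the S970D libraries. Phox2a and Gata2 lay between 7.12 and 8.54 log2 CPM in every library. Th, the first enzyme of catecholamine synthesis, was close to the bottom of the table, from -1.91 to -0.32.

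Mov10 itself, on chromosome 3 (104794836 to 104818563, minus strand, GRCm38), was the most abundant transcript of every library. It read 14.90, 15.49 and 15.71 log2 CPM with WT and 14.57, 14.84 and 14.75 with S970D. The groups did not overlap, with every S970D library under every WT library. The difference of -0.65 ± 0.27 (SE) did not pass, at a limma adjusted p of 0.0829. An exact permutation test gave p = 0.1, the smallest that 3 against 3 libraries allow. Mov10 made up 3.16%, 4.81% and 5.45% of the summed CPM in the WT libraries and 2.28% to 2.88% in the S970D libraries. The species of the transfected sequence is not given, so how completely its reads were assigned to the mouse gene is not known. The part of the Mov10 level in the results below was not tested.

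Across the table, 3248 genes (20.3%) were higher and 3479 (21.8%) lower with S970D at a limma adjusted p under 0.05, or 42.1% in all. The median difference was 0.89 on the log2 scale among the higher genes and -0.85 among the lower ones, and 1309 rose and 1190 fell by at least 1. WT and S970D libraries did not overlap for 9133 genes (57.2%). The count depended on which libraries were present. Without S970D replicate 1 it was 18 genes and without WT replicate 2 it was 23. It was 2541 without WT replicate 3, 4993 without S970D replicate 2, 5132 without S970D replicate 3 and 8470 without WT replicate 1. The same difference was also fitted with all 9 libraries of the table, those of MOV10 S970A included, sharing 1 estimate of spread. There 1 gene passed, Cxcl1, although 7081 had an unadjusted p under 0.05 and 6325 an adjusted p under 0.1. With the medians of the libraries set equal, which moved the median of all genes by 0.11, the split became 3948 higher and 2762 lower.

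The largest rises are shown library by library in the plot of named genes. Castor2, whose protein binds the GATOR2 regulator of mTORC1 signalling, read 2.74, 2.91 and 3.05 log2 CPM with WT and 6.55, 6.22 and 5.73 with S970D. The groups were far apart and each was tight, with a rise of 3.27 ± 0.22 (SE), or 9.62-fold, at a limma adjusted p of 0.00157. Patj, a scaffold protein of tight junctions and of the Crumbs polarity complex, read 6.88, 5.35 and 4.79 with WT and 8.82, 8.05 and 8.06 with S970D. WT replicate 1 was the highest of its group there, and the rise was 2.64 ± 0.49 with an adjusted p of 0.0130. Without that library the rise was 3.24. Castor2 lies on chromosome 5 (134099711 to 134144343) and Patj on chromosome 4 (98395785 to 98719603), both on the plus strand, and their transcripts of 7367 and 7340 bases were the longest among the 10 largest rises.

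Rn7s1, a gene for 7SL, the RNA of the signal recognition particle that brings ribosomes to the endoplasmic reticulum, read 3.90, 3.09 and 3.01 with WT and 6.15, 6.08 and 5.65 with S970D. It is transcribed by RNA polymerase III and is not normally polyadenylated, and the libraries were made from poly(A) RNA. Its rise was 2.63 ± 0.26 with an adjusted p of 0.0083. Rpl27, a protein of the large ribosomal subunit, rose by 2.55 ± 0.36, from 8.17, 7.38 and 6.98 to 10.20, 10.56 and 9.41. Gp1bb, which codes for a chain of the platelet receptor for von Willebrand factor, was barely detected with WT (1.14, 0.00 and -0.16) and stood at 3.11, 2.95 and 2.86 with S970D. Gp1bb shares its place and strand with Sept5, a septin, which itself rose by 0.68 ± 0.15. Tmem238 rose by 2.49 ± 0.45, Sap25, a partner of the Sin3A corepressor, by 2.31 ± 0.44, and Car11, a carbonic anhydrase relative without enzyme activity, by 2.22 ± 0.50. In all 8 of these genes every S970D library lay above every WT library, as the rule for naming them required.

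**Figure D1:**
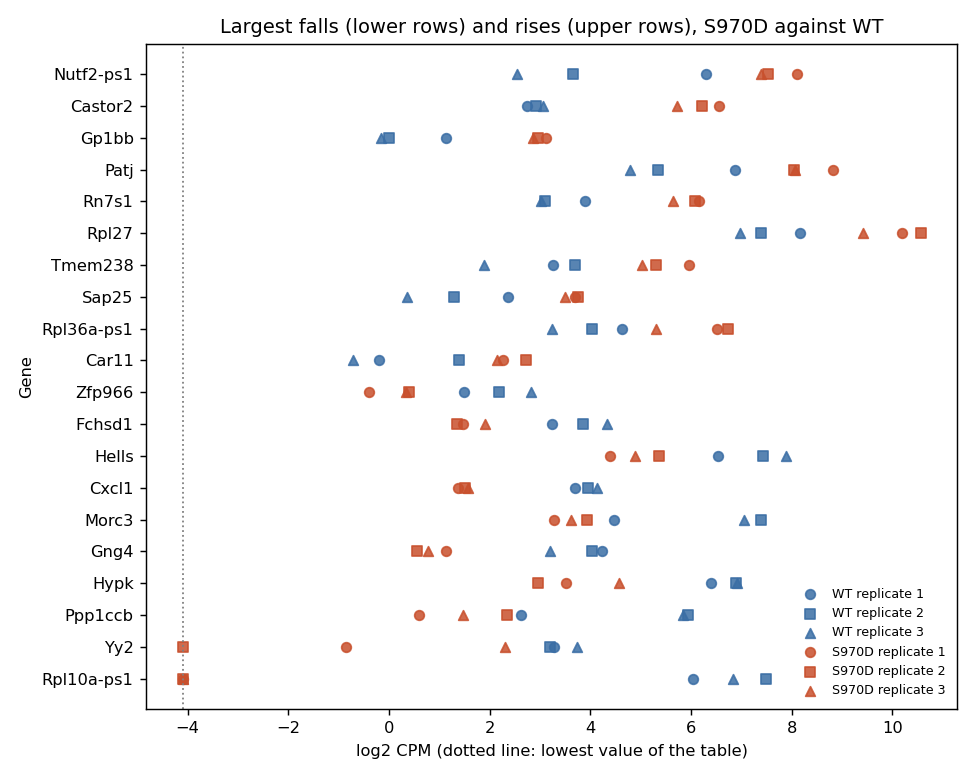
Log2 CPM of the 10 largest rises and 10 largest falls in each of the 6 libraries, with WT in blue and S970D in red. The dotted line marks -4.09, the lowest value of the table, where Rpl10a-ps1 lies in all 3 S970D libraries, and WT replicate 1 (circles) lies toward the S970D points for Nutf2-ps1, Morc3 and Ppp1ccb.

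Among the falls, Cxcl1, a chemokine that attracts neutrophils, was the one that also passed with all 9 libraries (limma adjusted p = 0.0390). It read 3.69, 3.96 and 4.14 log2 CPM with WT and 1.38, 1.5 and 1.56 with S970D, and fell by 2.45 on the log2 scale (SE 0.17, adjusted p = 0.00184). Both groups were tight and more than 2 log2 units apart. Gng4, a gamma subunit of heterotrimeric G proteins, read 4.23, 4.04 and 3.20 with WT and 1.13, 0.55 and 0.78 with S970D, and fell by 3.00 (SE 0.29, adjusted p = 0.0083). Hells, a remodelling ATPase needed for DNA methylation, read 6.54, 7.43 and 7.89 with WT and 4.38, 5.36 and 4.88 with S970D, and fell by 2.41 (SE 0.36). Morc3, an ATPase of nuclear bodies, was at 4.47 in WT replicate 1, against 7.39 and 7.06 in the other WT libraries and 3.28, 3.94 and 3.61 with S970D. It fell by 2.70 (SE 0.68, adjusted p = 0.0187), and WT replicates 2 and 3 carried that difference. Fchsd1, an F-BAR and SH3 domain protein, fell by 2.22 (SE 0.29) and the zinc finger gene Zfp966 fell by 2.06 (SE 0.37).

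Yy2, a zinc finger factor related to YY1, read 3.28, 3.19 and 3.73 with WT but -0.85, -4.09 and 2.31 with S970D, so the S970D libraries lay far apart from each other. Its adjusted p was 0.0352, and 0.0550 without WT replicate 1. Its near copy Yy1 read 6.89, 7.12 and 7.52 with WT and 5.47, 6.40 and 5.92 with S970D, and Mbtps2, a protease gene in which Yy2 lies, fell by 1.03 (SE 0.20). How reads were split between Yy1, Yy2 and Mbtps2 is not given in the sources used here, so the level of Yy2 is uncertain.

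For several of these 20 genes a partner with shared or overlapping sequence moved the other way or far less. Rpl10a-ps1, a processed copy of the ribosomal protein gene Rpl10a on chromosome 1 (64993951 to 64994604, minus strand), read 6.03, 7.49 and 6.84 with WT and was listed at the lowest value in all 3 S970D libraries. Rpl10a itself, on chromosome 17, went from 9.61, 8.52 and 8.55 to 10.53, 10.23 and 10.26. The CPM of both together was 848, 548 and 488 with WT and 1482, 1201 and 1228 with S970D, which is 1.09 higher on the log2 scale. Hypk, a chaperone-like partner of the NatA acetyltransferase, fell by 3.05 (SE 0.37), from 6.39, 6.89 and 6.91 to 3.52, 2.95 and 4.56. Serf2, which overlaps Hypk on the same strand of chromosome 2, rose by 2.15 ± 0.45, from 8.81, 7.10 and 6.90 to 9.94, 9.67 and 9.65, and the 2 genes together were 1.46 higher.

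Nutf2-ps1, a copy of the gene for nuclear transport factor 2, had the largest rise among genes open to naming (a mean log2 CPM of at least 1 and no predicted-model symbol), 3.51 ± 0.81, from 6.29, 3.66 and 2.55 to 8.11, 7.53 and 7.38. Nutf2 itself read 8.29, 8.13 and 8.05 with WT and 7.42, 8.12 and 7.90 with S970D (difference -0.35 ± 0.19, adjusted p = 0.173), and the sum of both was 0.48 higher. Ppp1ccb fell by 3.32 (SE 0.86), while Ppp1cc, the phosphatase gene it was copied from, went from 7.83, 7.55 and 7.70 to 8.18, 7.99 and 8.08. Their summed level was 0.14 higher and the groups overlapped (exact permutation p = 0.2). Rpl36a-ps1 rose by 2.22 ± 0.44 and Rpl36a by 0.75 ± 0.24, and Sap25 shares its place with Gm20605, whose difference was 0.40 ± 0.19. Reads that match both members of such a pair can be assigned to either, so the split between them is uncertain. Ppp1cc and Yy1 were looked up after the values of Ppp1ccb and Yy2 were seen.

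**Figure D2:**
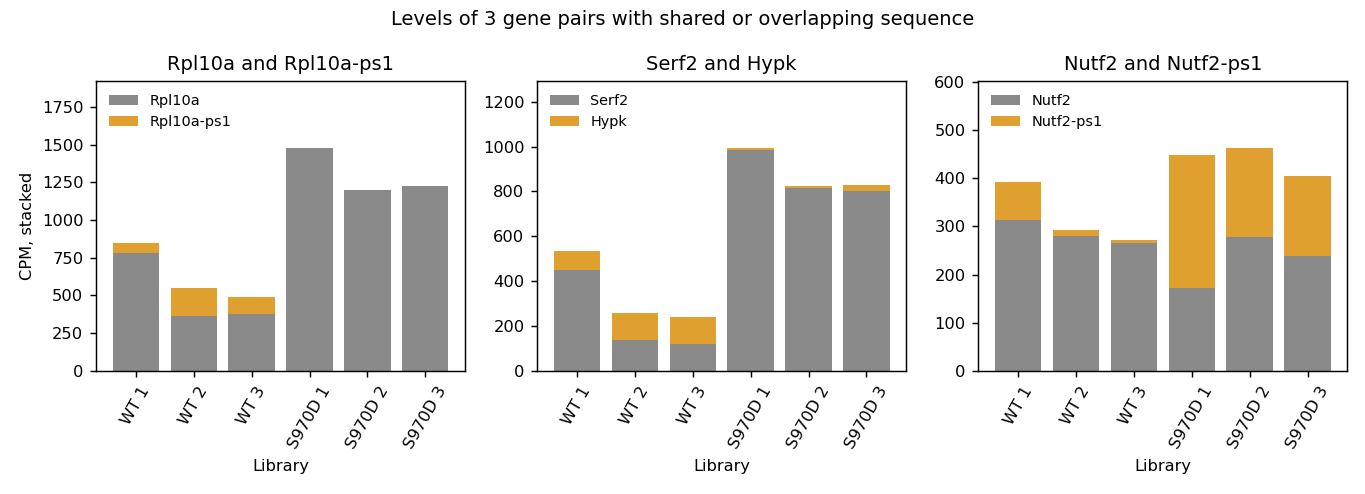
CPM of a gene (grey) with its copy or overlapping neighbour (orange) stacked on top, for each of the 6 libraries. The grey bars of Rpl10a and Serf2 grow with S970D while the orange bars shrink, and Nutf2 shows the opposite split, with 390 CPM for the sum in WT replicate 1 and 294 and 271 in the other WT libraries.

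At the top of the expression range the messages that gained most were those of the ribosome. Rpsa, a protein of the small subunit, went from a mean CPM of 3212 ± 1023 (SD, n = 3) to 6931 ± 1137, a gain of 3720 CPM. Rpl8, of the large subunit, gained 2469 CPM, from 1723 ± 700 to 4193 ± 802, and Rpl41 went from 1186 ± 535 to 3308 ± 541. The messages that lost most CPM, among those that passed, came from several systems. The mitochondrially encoded mt-Co1, a core subunit of cytochrome c oxidase, fell from 6775 ± 1863 to 2891 ± 799, and mt-Nd1, a subunit of complex I, from 4144 ± 779 to 2563 ± 442. Noct, whose product nocturnin removes phosphate from NADP and is known as a circadian gene, fell from 2877 ± 896 to 1138 ± 127. Hnrnpu dropped by 838 CPM and Hnrnpa1, like it a protein that binds nascent RNA, dropped by 760 CPM.

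Genes were then grouped by function. In each group the counts stand against the background of 20.3% higher and 21.8% lower over all genes, whose median difference was 0.00. Of 82 measured cytosolic ribosomal protein genes, 68 rose, none fell and 14 did not pass, with a median difference of 1.01 on the log2 scale. Rpl24 read 9.20, 8.38 and 8.42 with WT and 10.15, 10.11 and 9.96 with S970D. The median was 1.27 without WT replicate 1. Of 78 mitochondrial ribosomal protein genes, 51 rose and none fell (median 0.73), Mrpl30 among them, from 6.43, 5.88 and 5.67 to 7.31, 7.09 and 7.03. Other parts of the translation machinery did not follow as a block. Among 67 initiation and elongation factors and genes that share their symbols, 19 rose and 13 fell (median 0.02), with Eef1a2, an elongation factor of neurons and muscle, up by 1.11 ± 0.20 and Eif4ebp3, an inhibitor of cap binding, up by 3.30 ± 0.62 from very low levels. Of 23 cytosolic tRNA synthetases 8 rose and 3 fell, with Mars, which charges methionine, up by 1.56 ± 0.32. Of 39 ribosome biogenesis factors 10 rose and 5 fell.

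Most nuclear genes of the respiratory chain rose. Of 82 measured subunits of the chain and the ATP synthase, 57 rose and 1 fell (median 0.82). Cox6a1, a subunit of cytochrome c oxidase, read 8.28, 7.66 and 7.45 with WT and 9.41, 9.13 and 8.87 with S970D. Ndufv3, of complex I, rose by 1.54 ± 0.25. Their mitochondrially encoded partners split: of 13 such messages 4 fell and 2 rose. mt-Co1 read 12.19, 12.86 and 13.00 with WT and 11.04, 11.85 and 11.48 with S970D, and mt-Nd4l fell by 1.59 (SE 0.24). By contrast mt-Co3 rose by 0.63 ± 0.17, from 10.78, 10.49 and 10.51 to 11.10, 11.44 and 11.14, and mt-Nd3 rose by 0.81 ± 0.26. Of 22 genes for mitochondrial protein import 10 rose and none fell, led by Timm13, a chaperone of the space between the membranes, at 1.97 ± 0.35.

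In protein turnover the lists moved in different directions. Of 37 proteasome subunits 15 rose and 1 fell (median 0.29), with Psmb4 up by 1.53 ± 0.28 and the immunoproteasome subunit Psmb10 by 1.62 ± 0.33. Of 22 ubiquitin-like proteins and small adaptors 13 rose and 2 fell (median 0.73), among them Nedd8, the modifier of cullin ligases, at 1.15 ± 0.20, and Fau at 1.64 ± 0.27. Of 28 HECT and RBR ubiquitin ligases 18 fell and 1 rose (median -0.72). Hectd2 read 4.37, 4.95 and 5.24 with WT and 3.02, 3.30 and 3.36 with S970D, and Wwp1 fell by 1.00 (SE 0.17). Of 34 heat shock and chaperonin genes 10 fell and 1 rose. Dnajb9, a co-chaperone of the endoplasmic reticulum, fell by 0.94 (SE 0.20). In the autophagy list 5 of 32 rose and 6 fell. Gabarap and Map1lc3b, which tag the growing membrane, rose by 1.1 ± 0.22 and 0.76 ± 0.16, while Atg12 fell by 0.88 and Atg4a fell by 0.93.

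Many genes for proteins that MOV10 is known to meet on RNA, or for helicases of its family, fell. Of 26 listed partners and UPF1-like helicases 15 fell and 2 rose (median -0.61). Their median transcript length was 5228.5 bases, and 45.6% of the fifth of coding genes with the longest transcripts fell. Dhx36, a helicase that opens G-quadruplexes, read 5.73, 6.11 and 6.27 with WT and 4.97, 4.97 and 5.22 with S970D. G3bp2, of stress granules, fell by 0.82 (SE 0.14), and Elavl1, which binds AU-rich 3′ UTRs, fell by 1.02 (SE 0.16). Fmr1, the gene for FMRP, read 5.41, 5.49 and 5.83 with WT and 4.90, 4.73 and 4.98 with S970D, and fell by 0.71 (SE 0.15). Upf1, the decay helicase, read 7.91, 7.85 and 7.84 with WT and 7.65, 6.70 and 7.98 with S970D and did not pass (-0.42 ± 0.30, adjusted p = 0.279).

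Of 26 argonaute, GW182 and microRNA-processing genes 9 fell, none rose and 17 did not pass (median -0.36). Ago2 read 6.66, 6.88 and 6.98 with WT and 6.35, 6.47 and 6.36 with S970D, and fell by 0.45 (SE 0.13, limma adjusted p = 0.0282). Tnrc6a, a GW182 protein that recruits deadenylases to AGO proteins, fell by 1.01 (SE 0.18). Dgcr8, whose partner Drosha cuts primary microRNAs, fell by 0.84 (SE 0.14), and Lin28b, which blocks let-7 maturation, fell by 1.04 (SE 0.18). Of 41 deadenylation, decapping and exosome genes 17 fell and 5 rose (median -0.21), among the falls the deadenylase Cnot6l, at 5.90, 5.72 and 6.49 with WT and 4.24, 4.45 and 4.61 with S970D. The decay enzyme Xrn1 fell by 1.09 (SE 0.19). Of 21 nonsense-mediated decay factors 7 fell and 3 rose (median -0.08). Smg1, the kinase that phosphorylates UPF1, fell by 1.1 (SE 0.18).

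In splicing, core proteins and regulators moved apart. Of 39 Sm, LSm and U snRNP proteins, the core of the spliceosome, 19 rose and 4 fell (median 0.46), with Snrpa up by 1.37 ± 0.26. Of 48 SR and hnRNP proteins, which steer splice-site choice, 25 fell and 3 rose (median -0.55). Hnrnpr read 8.30, 8.83 and 9.19 with WT and 6.65, 7.13 and 7.43 with S970D, and Srsf5 fell by 0.77 (SE 0.14). Of 28 nuclear pore genes 11 fell and 4 rose. Ranbp2, the largest pore filament protein, fell by 1.34 (SE 0.23).

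Chromatin regulators were largely on the falling side. Of 58 histone lysine methyltransferases and demethylases 34 fell and 5 rose (median -0.63), where Ash1l fell by 1.31 (SE 0.23) and Suv39h2, a writer of heterochromatin marks, fell by 0.97 (SE 0.17). Of 39 SWI/SNF, CHD and ISWI remodelling genes 19 fell and 4 rose (median -0.53). Atrx read 5.74, 6.37 and 6.68 with WT and 4.27, 4.79 and 4.76 with S970D. Of 20 cohesin and condensin genes 15 fell and 3 rose (median -0.84), and Smc2, a condensin ATPase, fell by 1.57 (SE 0.25). The cohesin loader Nipbl fell by 0.99 (SE 0.18). Histones themselves went the other way. Of 60 replication-dependent histone genes 23 rose and 1 fell (median 0.92, or 0.41 with a pseudocount of 1 CPM), H3c3 from -0.97, -1.40 and -1.65 to 1.00, 0.13 and 0.53. Most histone messages end in a stem-loop without a poly(A) tail, so a poly(A) library sees only a part of them. Of 363 Zfp zinc finger genes 156 fell and 30 rose (median -0.49), and Zfp800 fell by 1.75 (SE 0.23).

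Cell-cycle genes did not move as a block. Of 42 genes for S phase and replication 9 rose and 10 fell. Pold1, the catalytic subunit of DNA polymerase delta, rose by 1.51 ± 0.27, while Ccne2, the cyclin of S-phase entry, fell by 1.48 (SE 0.27). Of 45 genes for G2 and mitosis 15 fell and 2 rose (median -0.16), Ccna2 from 7.51, 7.84 and 8.01 to 6.51, 6.80 and 6.81. Of 33 Fanconi and homologous recombination genes 15 fell and 4 rose (median -0.37), and Brca1 fell by 0.83 (SE 0.16).

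At the cell surface the clearest group was the cadherins and protocadherins, which give neurons their adhesive identity. Of 60 measured, 24 fell and 2 rose (median -0.81, or -0.35 with a pseudocount of 1 CPM). Pcdhgb1 read 2.68, 3.35 and 3.59 with WT and 1.61, 1.89 and 1.64 with S970D. Protocadherins of 1 cluster share exons, so their counts are not independent of each other. Of 39 genes of TGF-beta and BMP signalling 14 fell and 6 rose (median -0.48, or -0.30 with that pseudocount), where Smad4 fell by 1.57 (SE 0.24) and the receptor Tgfbr1 fell by 1.15 (SE 0.18). Of 40 Wnt genes 13 fell and 2 rose, and Ctnnb1, the gene for beta-catenin, fell by 0.56 (SE 0.13). Of 20 receptor tyrosine kinases 6 fell and none rose. Ntrk3, the receptor for neurotrophin-3, read 4.19, 5.41 and 6.04 with WT and 3.34, 3.20 and 3.38 with S970D. Of 21 amino acid carriers 8 fell and 1 rose, and the cystine carrier Slc7a11 fell by 0.99 (SE 0.15). Some large genes of the surface and matrix rose. Plxnb2, a semaphorin receptor, rose by 1.64 ± 0.25, from 6.04, 5.38 and 4.99 to 7.21, 6.97 and 7.15. Col22a1, a collagen of tissue junctions, rose by 1.47 ± 0.26 and Lama5, a laminin chain, by 1.49 ± 0.25, while 7 of 30 collagens and laminins rose and 2 fell.

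Neuronal and cytoskeletal lists differed among themselves. Of 17 tubulins 11 rose and 2 fell (median 0.52), with Tuba1c up by 1.26 ± 0.26. Of 23 neurofilament and neurite genes 7 rose and 4 fell, among them Prph, the intermediate filament peripherin of peripheral neurons, from 9.99, 9.69 and 9.65 to 10.71, 10.51 and 10.42. Of 35 voltage-gated channel genes 9 rose and 3 fell, with Scn8a, a neuronal sodium channel, up by 0.76 ± 0.15. In the list for vesicle release 5 rose and 6 fell of 32. Sv2a and Syn1, of synaptic vesicles, rose by 1.55 ± 0.38 and 0.73 ± 0.14. Of 43 kinesins and dynein heavy chains 11 fell and 2 rose, and Kif5b, a motor of axonal transport, fell by 1.3 (SE 0.23).

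In metabolism 13 of 24 glycolysis genes rose and 3 fell (median 0.45). Slc16a3, the lactate exporter, read 8.56, 8.80 and 8.36 with WT and 9.86, 9.43 and 9.58 with S970D, and Eno2, the neuronal enolase, rose by 1.00 ± 0.15. Of 32 glutathione, peroxiredoxin and thioredoxin genes 12 rose and 4 fell (median 0.35), with Gpx4, which reduces lipid peroxides, up by 1.40 ± 0.20. In cholesterol synthesis 6 rose and 6 fell of 24, and while Mvk rose by 1.09 ± 0.18, Hmgcs1 fell by 0.81 (SE 0.18).

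The stress and immune lists held rises and falls in like numbers. Of 29 genes of the ATF4 and unfolded protein response 9 rose and 6 fell. Of 28 immediate early genes 5 rose and 6 fell, and while Jund rose by 1.42 ± 0.28, Klf6 fell by 1.12 (SE 0.22). Of 22 p53 targets 5 rose and 4 fell. Of 23 NF-kappaB targets, cytokines and chemokines 4 rose and 6 fell. Il6, the interleukin, fell beside Cxcl1, from 4.52, 4.85 and 5.07 to 3.22, 3.88 and 3.46. Of 41 interferon-response genes and RNA sensors 13 fell and 9 rose, and Ifih1, the sensor MDA5, fell by 0.93 (SE 0.16).

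**Figure D3:**
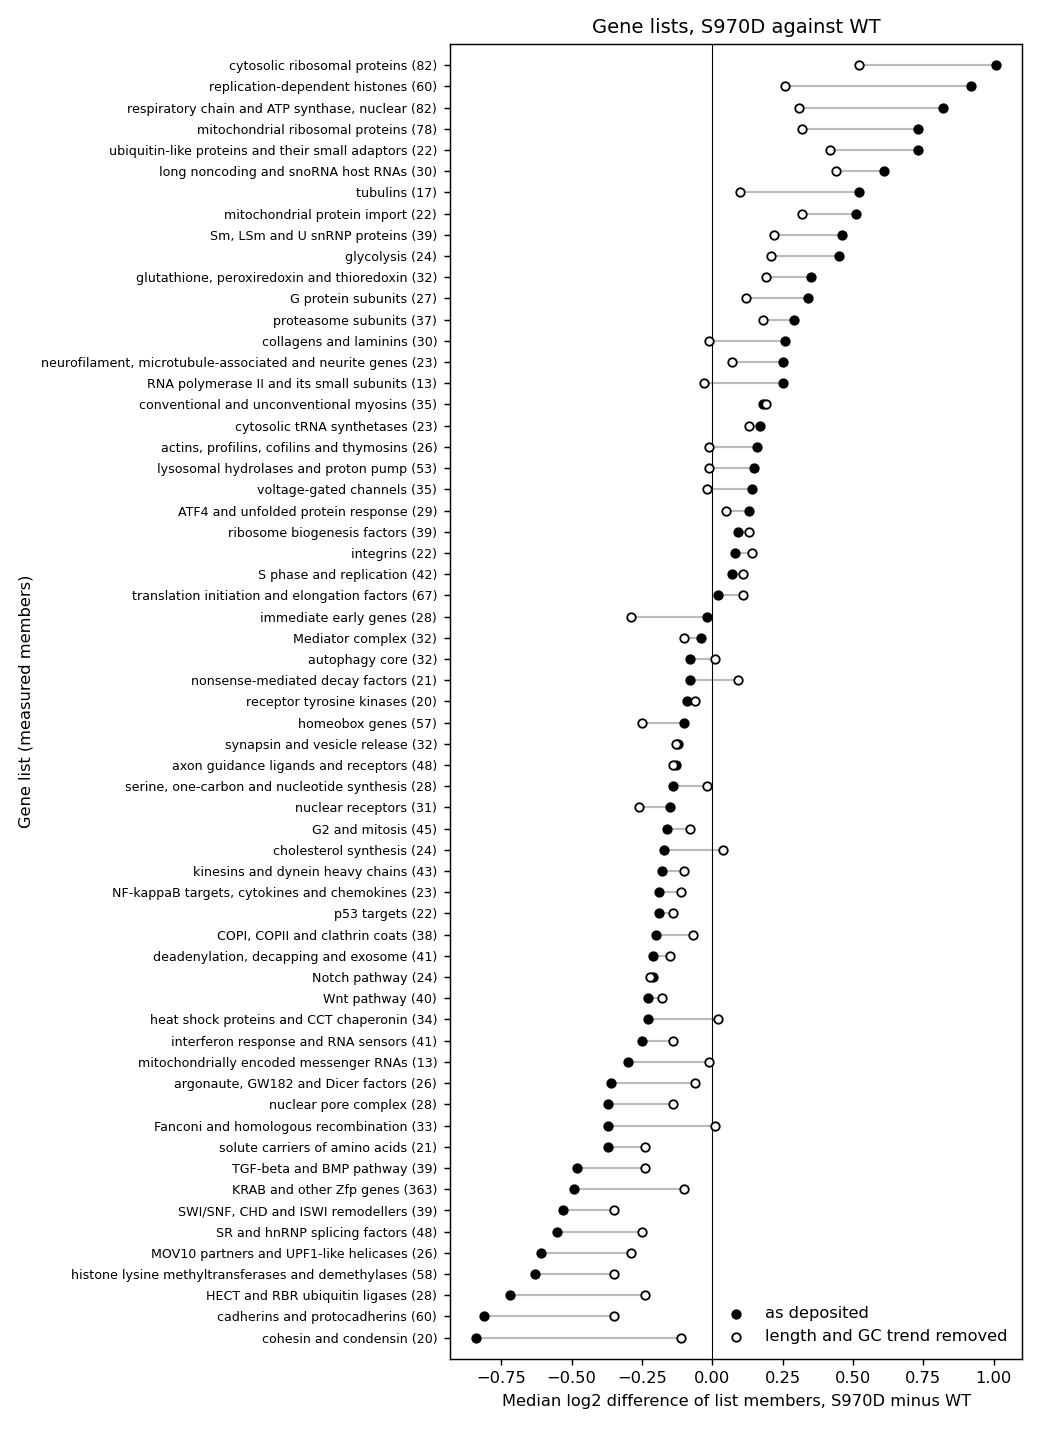
Median log2 difference (S970D minus WT) of the members of each gene list as deposited (filled points) and after the trend over transcript length and GC content was removed from each library (open points), with the number of measured members in brackets. Ribosomal proteins lie at 1.01 and 0.52 and cohesin and condensin genes at -0.84 and -0.11, and most open points lie nearer to 0 than the filled ones.

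Transcript length and base composition went with the direction of change across the whole table. In the fifth of coding genes with the shortest transcripts (at most 1620 bases) 47.7% rose and 5.17% fell, with a median difference of 0.57. In the fifth with the longest (4810 bases and over) 7.02% rose and 45.6% fell, with a median of -0.51. For GC content the lowest of the 5 classes (at most 44.8%) had a median of -0.65 and the highest (56.5% and over) a median of 0.53. The share of each library taken by short messages shows the same samples apart. The shortest class held 28.6%, 23.5% and 22.1% of the summed CPM in the WT libraries and 35.1%, 33.5% and 33.0% in the S970D libraries. WT replicate 1 lay between its group and the S970D libraries. Length and GC content of the transcripts cannot be told apart here from the function of the genes, and whether the relation arose in the cells or in making the libraries was not tested.

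**Figure D4:**
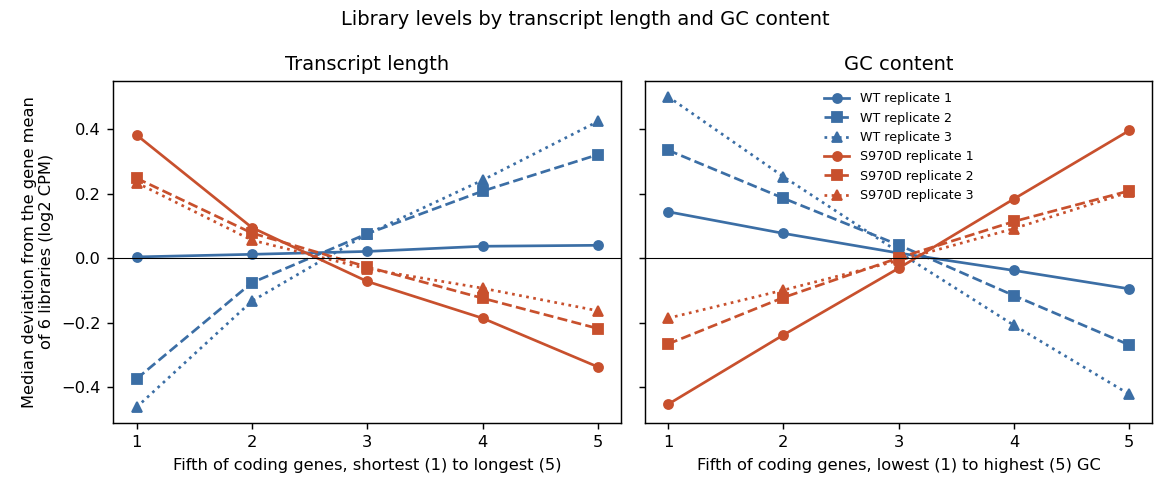
Median deviation from the gene mean (log2 CPM) of coding genes in 5 classes of transcript length (left) and of GC content (right), 1 line per library. In the shortest class S970D libraries lie at 0.38, 0.25 and 0.23 and WT libraries at 0.00, -0.37 and -0.46, with the nearly flat blue line being WT replicate 1.

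The 3′ UTR and the coding sequence both went with the change. Over 13253 coding genes the Spearman correlation with the log2 difference was -0.427 for 3′ UTR length, -0.316 for coding length and -0.123 for 5′ UTR length, given as a description across genes, which are not independent. Both lengths were then cut into 3 classes of equal size. Genes in the lowest class of both had a median difference of 0.65, and those in the highest class of both -0.55. With a long coding sequence and a short 3′ UTR the median was 0.07, and with a short coding sequence and a long 3′ UTR -0.18. Length and GC content added up: 60.4% of the 1906 short GC-rich genes rose and 65.3% of the 1972 long AT-rich genes fell.

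**Figure D5:**
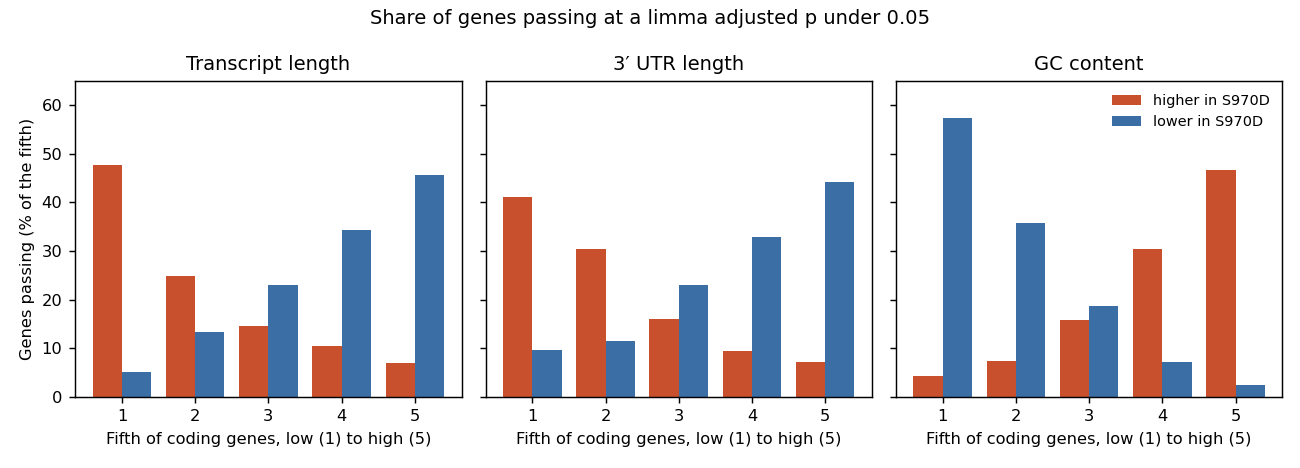
Percentage of coding genes that passed as higher (red) or lower (blue) with S970D in 5 classes of transcript length, 3′ UTR length and GC content, from the lowest values (1) to the highest (5). From the class of shortest to that of longest 3′ UTRs the share of genes that rose went from 41.2% to 7.13% and the share that fell from 9.71% to 44.3%.

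Because MOV10 is known to act with AGO2 on 3′ UTRs, sites for the seeds of 9 microRNAs were looked for there. The seed, bases 2 to 8 of the mature microRNA and in capitals here, pairs with the message. The 4 shown, a choice made with the values known, run from let-7a, whose maturation Lin28b blocks, to miR-30a. Their sequences are from RefSeq (GRCm38.p6).
mmu-let-7a-5p: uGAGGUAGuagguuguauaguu
mmu-miR-16-5p: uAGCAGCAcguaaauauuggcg
mmu-miR-17-5p: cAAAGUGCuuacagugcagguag
mmu-miR-30a-5p: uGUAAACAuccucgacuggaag
Sites were exact matches on the message strand to the reverse complement of these bases. A let-7a site thus reads ctacctc in the 3′ UTR. For miR-16 the same rule gives tgctgct on the message. The match sought for miR-17 was gcacttt in this notation. Messages with tgtttac were counted for miR-30a. Genes were compared within 3 classes of 3′ UTR length. No level of a microRNA was measured, so which of them act in these cells is not known from these data.

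Among the 4313 genes with the longest 3′ UTRs (1524 bases and over), those with a let-7a site had a median difference of -0.36 and those without one -0.43. For miR-16 the medians were -0.42 and -0.41. For miR-17 they were -0.50 and -0.37, and for miR-30a -0.54 and -0.36. The widest gaps were those of miR-21a, -0.59 with and -0.39 without a site, and miR-26a, -0.56 and -0.37. As deposited, the median was lower with a site for 8 of the 9 microRNAs, let-7a being the exception. Genes with miR-30a sites also had the lower GC content in their 3′ UTRs, a median of 41.9% against 44.3%. With the length and GC trend removed, the medians with and without a site were -0.02 and -0.06 for let-7a. They were -0.07 and -0.05 for miR-17 and miR-21a, -0.06 and -0.05 for miR-19b, miR-92a and miR-26a, and -0.09 and -0.04 for miR-30a. For miR-16 they were -0.05 and -0.06 and for miR-9 -0.04 and -0.06, so the order reversed for both. Sites were held by 9.21% (let-7a), 21.6% (miR-16), 12.8% (miR-17) and 13.9% (miR-30a) of the 12946 3′ UTRs of measured coding genes. In the same length class the medians were -0.45 with and 0.13 without ATTTA, the core of AU-rich elements, at a GC content of 43.0% and 52.4%. The values were -0.06 and 0.04 after the trend was removed. ATTTA stood in 64.3% of all these 3′ UTRs, and a G-quadruplex motif, 4 runs of at least 3 G with 1 to 7 bases between them on the message strand, in 11.4%. G-quadruplex motifs, which MOV10 and DHX36 are known to meet, went with a median of -0.20 against -0.46 without, and -0.02 against -0.06 after the trend was removed.

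Changes that exceed the length and GC trend were found by removing it from each library and taking the replicate number as a block. There 2176 genes (13.6%) were higher and 2095 (13.1%) lower, or 26.8% of the genes tested. Of the 6727 genes that passed as deposited, 3003 also passed there in the same direction, 1481 higher and 1522 lower, and 14 passed in the other direction. Among genes open to naming, Castor2 led the rises at 3.46 ± 0.19 on the log2 scale, followed by Nutf2-ps1 and Patj. Next under the same conditions came Wdr89, a WD-repeat gene, at 2.41 ± 0.12, from 6.17, 5.75 and 5.06 to 8.16, 8.09 and 6.91 as deposited, and Cpne8, a calcium-dependent membrane-binding copine, at 2.39 ± 0.16, from 2.36, 1.66 and 1.21 to 3.96, 3.49 and 3.38. The olfactory receptor gene Olfr77 followed at 2.37 ± 0.24. The falls were led by Rpl10a-ps1, Yy2, Ppp1ccb, Gng4 at -2.84 ± 0.22 and Hypk at -2.69 ± 0.28. Smim10l1, which codes for a small membrane protein, came next at -2.65 ± 0.21, from 5.54, 5.79 and 6.12 to 3.83, 4.73 and 4.16. Of the abundant messages, mt-Nd1 (adjusted p = 0.0653) and Hnrnpu (adjusted p = 0.154) no longer passed there. This fit differs from the deposited one by the block as well as the trend, and the block alone gave 7985 genes. With the trend removed and no block 2978 genes passed, of which 2273 were shared with the 6727.

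The counts of the gene groups changed in the fit with the trend removed and the block. Ribosomal proteins had 47 of 82 higher and none lower with a median of 0.52, mitochondrial ribosomal proteins 33 higher and 1 lower (median 0.32) and respiratory subunits 32 higher and 2 lower (median 0.31). Histone lysine methyltransferases and demethylases had 22 lower and 4 higher (median -0.35), remodelling genes 15 and 5, and SR and hnRNP proteins 18 and 6. Cadherins had 11 lower and 2 higher, and MOV10 partners and UPF1-like helicases 8 and 2. Cohesin and condensin genes had 5 lower and 4 higher (median -0.11), argonaute and GW182 genes 3 lower and 4 higher (median -0.06), Fanconi genes 4 lower and 7 higher (median 0.01), and Ago2 a difference of -0.04 (adjusted p = 0.773). Fmr1 stood at 0.20 (adjusted p = 0.156), above 0 where it had fallen as deposited. Dhx36 (-0.15, limma adjusted p = 0.299) and Lin28b (-0.25, adjusted p = 0.119) no longer passed, while G3bp2, Elavl1, Tnrc6a and Dgcr8 still did. Examples from other lists also parted. Wwp1, Nipbl, Slc7a11, Prph, Gpx4, Ifih1, Brca1 and Hmgcs1 were among those that no longer passed. Smc2, Atrx, Cnot6l and Plxnb2 were among those that still did. Histone genes had 9 higher and 3 lower of 60 (median 0.26), tubulins 4 and 1 of 17 (median 0.10), and Zfp genes 37 higher and 58 lower of 363 (median -0.10). Sm, LSm and U snRNP genes had 12 higher and 1 lower (median 0.22), proteasome subunits 10 and 0 (median 0.18), glycolysis genes 9 and 4 (median 0.21), and HECT and RBR ligases 10 lower and 2 higher (median -0.24). Medians also changed sign for nonsense-mediated decay factors, to 0.09, for cholesterol synthesis, to 0.04, and for heat shock genes, to 0.02. The block with the trend kept gave 74 ribosomal protein genes higher and 0 lower. For histone lysine methyltransferases and demethylases it gave 40 lower and 7 higher.

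Noncoding genes differed by type. Of 30 long noncoding and snoRNA host RNAs 14 rose and 6 fell (median 0.61), and 14 were higher and 1 lower with the trend removed and the block. Meg3, an imprinted long noncoding RNA, read 0.33, 0.24 and 0.20 with WT and 2.02, 1.63 and 1.13 with S970D, although its transcript has 14548 bases. Snhg20 rose by 1.34 ± 0.29, and Rn7sk, the RNA that holds the elongation factor P-TEFb inactive and that lacks a poly(A) tail, rose by 1.53 ± 0.31. By annotated gene type, 94 of 442 antisense genes rose and 8 fell (median 0.42), and 130 of 570 processed pseudogenes rose and 47 fell (median 0.41), with shares of 21.3% and 22.8% that rose, near the 20.3% of all genes, and 1.81% and 8.25% that fell. TEC genes, models that await experimental support, had a median of -0.20. Of 441, 95 were lower (21.5%, near the 21.8% of all genes) and 48 higher (10.9%, under the 20.3% of all genes). Sense-intronic transcripts, which lie inside introns of other genes, had 11 of 45 lower (24.4%) and 4 higher (8.89%), with a median of -0.50. The kit kept strand information, but whether counting used it is not given in the sources used here, so antisense genes cannot be told from their partners.

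At the edge of detection 11 genes lay at the lowest value in all libraries of 1 group and above it in all libraries of the other. Of these, 6 were at the lowest value with WT, among them Gm4737 (4.95, 5.05 and 3.14 with S970D) and Tmem265 (2.01, 2.01 and 1.5). The other 5 were at the lowest value with S970D, and beside Rpl10a-ps1 they included the pseudogenes Mpc1-ps (0.57, 2.36 and 2.01 with WT) and Kansl2-ps (-0.93, 0.85 and 1.99). No fold is given for them.

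Markers of other cell types were low, with a few exceptions. Of 13 measured skeletal and cardiac muscle markers 9 rose and none fell (median 0.97, or 0.56 with a pseudocount of 1 CPM). Their summed CPM was 346 to 393 with WT and 432 to 461 with S970D, and most of it was Myh3, an embryonic myosin, at 8.27 to 8.54 log2 CPM in every library. Desmin (Des) went from 3.15, 2.53 and 2.41 to 3.91, 3.72 and 3.57. With the trend removed and the block 2 of the 13 were higher. Of the macrophage markers 4 of 17 were measured, at 1.12 to 1.43 summed CPM with WT and 1.91 to 3.02 with S970D. Endothelial markers (6 of 13 measured) summed to 21.0 to 25.2 and 27.1 to 40.3 CPM, fibroblast markers (5 of 12) to 53.6 to 77.4 and 42.3 to 51.9, and glial markers (6 of 14) to 121 to 134 and 78.1 to 122. Epithelial markers (4 of 13) summed to 47.4 to 56.5 and 25 to 48.3 CPM, nearly all of it Grhl2, and erythroid markers (4 of 9) to 100 to 146 and 49.4 to 78.2, nearly all of it the transferrin receptor Tfrc. In bulk RNA fewer cells of a type and less RNA per cell cannot be told apart, and the part of these markers in the results was not tested.

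The deposited table also gives a cluster colour for part of the genes. The rule behind the colours is not given in the sources used here, and colours drawn from these same libraries would be no independent evidence. Of 2194 genes the authors coloured blue 2025 rose and none fell, and of 785 coloured brown 691 rose and none fell. Of 2956 turquoise genes 2651 fell and none rose, and of 484 yellow genes 393 fell and none rose. Among the 9558 genes without a colour 532 rose and 435 fell.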

How the data were processed

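Poly(A) RNA libraries, made with a stranded kit, were sequenced for 101 cycles from each end, as the labels' protocols state. Salmon 1.1.0, bcl2fastq 2.20, the build GRCm38 and R 3.6.3 stand in the submitters' processing notes without a stated role. The authors deposited log2 CPM values, 1 column per library, replicates not pooled. Not given in the sources used here are their scaling, prior count and filter. If a prior count was added, a fold change near the lowest value is understated.

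The 6 deposited columns were fitted with limma 3.58.1 in R 4.3.3, with group as the only term and an intensity trend in the moderated variances, leaving 4 residual degrees of freedom. Two-sided p-values were adjusted by Benjamini-Hochberg over 15977 genes (threshold 0.05). Transcript features came from GENCODE vM21, for the transcript with the longest coding sequence, and 15959 gene IDs (99.9%) matched. The trend over length and GC content was removed per library with splines of 5 degrees of freedom. The fits were tested on simulated data.

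Genes named for their size of change passed, had groups that did not overlap, a mean log2 CPM of at least 1 and a symbol that is not a predicted model. They were the 10 largest rises and falls, the 5 largest by CPM in each direction, and the 6 largest in each direction with the trend removed and the replicate block. From a list, up to 3 leading members that passed were named, at any level (2 in each direction where rises and falls were within 2). Some genes that met this rule are not reported here. Mov10, Ago2, Fmr1, Upf1 and cell type markers were added to these, as were Nutf2, Rpl10a and other partners of named genes. The comparison and the lists were chosen with earlier results of these data known.

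Replicate numbers are shared by the groups. Deviations from the group means correlated at 0.31, 0.11 and 0.16 between same-numbered libraries, which met the bound of 0.1 for taking the numbers as pairs. No label says what a number marks, and for that reason the replicate block stayed an alternative. The counts and p-values come from the fit without it unless it is named, and so leave this pairing out.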

Additional observations from a re-analysis of the deposited data

How the results depend on the processing

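For the 34 genes named for their size of change, 432 results under 16 alternatives stayed on the same side of the threshold. The other 112 no longer passed, none with the sign reversed. These genes were chosen for passing with groups that did not overlap, some also for passing in a fit among these alternatives. Under most alternatives a reversed sign could therefore not occur, and its absence is no support. Genes that passed as higher numbered 0 with all 9 libraries and 1534 with the length and GC trend removed. Those that passed as lower numbered 1 with all 9 libraries, 1444 with the trend removed and 2095 with the trend removed and the replicate block. Leaving out 1 library at a time gave 10 to 4168 higher and 7 to 4302 lower genes, and a Mov10 difference between -0.881 and -0.481. Without S970D replicate 1 and without WT replicate 2, where 18 and 23 genes passed in all, 5477 and 5460 had an adjusted p under 0.1. Mov10 passed (limma) at -0.875 with the trend removed and the block (adjusted p = 0.0343) and at -0.881 without WT replicate 1 (adjusted p = 0.00696). It gave 0.00 after quantile normalization, which sets the top gene of each library equal. The replicate block alone gave 7985 genes and changed no call on a named gene (Mov10 adjusted p = 0.0767). The count was 6701 with a pseudocount of 1, 6143 of 11665 genes above a mean log2 CPM of 1, 6504 after quantile normalization, 6710 with medians set equal, and 5926 and 6721 with other variance priors. With no read counts, depth sets no stated limit here, and low genes are the least certain.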
